A study of Mus musculus with 2 samples.

Results

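The proteasome is described here through 44 mouse genes, which encode the subunits of its core and regulatory particles, its activators, its inhibitor-like regulator and its assembly factors. They were chosen by gene symbol, matched to the Ensembl mouse gene IDs of the deposited table, and all 44 were found among the 19498 genes listed there. The rule of choice uses symbols and not measured values, though earlier results of these data were known when it was written. Total RNA came from 4T1, an established cell line of mouse mammary carcinoma. The study prepared 1 library from control-treated 4T1 cells and 1 from 4T1 cells given LY500307, a small molecule that activates estrogen receptor beta. The sources used here give neither the nature of the control treatment nor the dose or time of LY500307. The series set out to compare the RNAs of these groups. With 1 library in each, no difference has a replicate check, and no p-value is given.

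The 26S proteasome degrades proteins that carry ubiquitin chains. Its barrel, the 20S core particle, has outer rings of alpha subunits, which gate the entrance, and inner rings of beta subunits, of which PSMB5, PSMB6 and PSMB7 cut peptide bonds. The 19S regulatory particle caps the barrel: its base holds a ring of ATPases that unfold the substrate, and its lid holds the enzyme that removes the ubiquitin chain. In mammalian cells whose proteasome is inhibited, the transcription factor NFE2L1 raises the genes of the subunits together by binding, with a small MAF partner, to antioxidant response elements.

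Reads were recovered from the deposited values, which are read counts divided by a scaling factor of each library. They summed to 14541874 in the control and 15104003 in the LY500307 library. The number of reads sets the counting error, and each 95% interval given below covers counting error only. Variation between cultures and between libraries could not be estimated. A log2 ratio is that of the LY500307 to the control value after 1.03 was added to both, and 11384 genes reached a floor of 33.0 in the higher of their values and serve as background. A fold is the ratio of the deposited values, with nothing added. All 8 epithelial markers examined (Epcam, Cdh1, Krt8, Krt18, Krt7, Cldn3, Cldn4 and Cldn7) were above the floor. Of 8 leucocyte markers 6 were analysed here, without Cd3e and Adgre1, and none of the 6 was above the floor. Ptprc had 2 reads in the control and 4 in the LY500307 library. Of 8 endothelial and fibroblast markers 1 was above the floor, Pdgfra with 271 and 285.

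The core of the antioxidant response element, TGACNNNGC, was looked for on both strands of the RefSeq promoters (build GRCm38.p6), which run from 250 bases before to 50 bases after the annotated start of transcription. A promoter was given for 37 of the 44 genes, and these 37 have 40 promoters. The motif stood in 6 of the 40, or 15.0%, against 12.4% of all 32851 promoters of the same length. The 6 belong to Psmd12, Psme4, Psmc6, Psmb6, Psmb5 and Psmd9. CCAAT, read by the factor NF-Y, stood in 12 of the 40, or 30.0%, against 37.4% of all. A match of letters is a description and does not show binding. The 4 promoters printed are those with the TGACNNNGC core whose genes had the most reads, shown so that the site can be read in genes from both ends and from the middle of the range of log2 ratios. They are chr11:107479278-107479577, chr11:30771525-30771824, chr14:45329574-45329873 and chr11:70525107-70525406, all on the plus strand and read 5′ to 3′. Capitals mark the motif, which in Psmd12, Psme4 and Psmc6 lies on the opposite strand and so appears as its reverse complement.
Psmd12: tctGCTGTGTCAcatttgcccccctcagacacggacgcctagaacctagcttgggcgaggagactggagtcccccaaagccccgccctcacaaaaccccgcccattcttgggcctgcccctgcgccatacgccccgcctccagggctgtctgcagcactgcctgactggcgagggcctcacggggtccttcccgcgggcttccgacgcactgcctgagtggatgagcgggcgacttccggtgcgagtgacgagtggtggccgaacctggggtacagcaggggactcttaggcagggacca
Psme4: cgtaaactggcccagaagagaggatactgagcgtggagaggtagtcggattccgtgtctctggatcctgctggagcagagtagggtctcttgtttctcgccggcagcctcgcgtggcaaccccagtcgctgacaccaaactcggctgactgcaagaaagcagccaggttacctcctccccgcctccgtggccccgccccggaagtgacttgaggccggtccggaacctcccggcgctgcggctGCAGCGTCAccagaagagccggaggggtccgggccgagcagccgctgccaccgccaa
Psmc6: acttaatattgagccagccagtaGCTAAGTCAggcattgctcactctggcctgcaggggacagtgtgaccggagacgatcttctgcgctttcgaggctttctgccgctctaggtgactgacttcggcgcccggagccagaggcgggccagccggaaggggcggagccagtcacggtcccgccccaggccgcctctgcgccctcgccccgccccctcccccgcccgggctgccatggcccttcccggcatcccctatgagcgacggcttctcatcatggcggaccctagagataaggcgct
Psmb6: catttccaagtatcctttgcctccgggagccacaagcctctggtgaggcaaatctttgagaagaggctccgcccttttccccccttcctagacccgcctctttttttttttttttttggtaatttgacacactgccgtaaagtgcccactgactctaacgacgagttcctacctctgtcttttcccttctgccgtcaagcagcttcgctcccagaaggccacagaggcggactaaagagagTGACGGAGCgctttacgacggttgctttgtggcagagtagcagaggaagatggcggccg
Measured from the annotated start, the first base of the marked stretch lies 247 bases upstream in Psmd12, 7 in Psme4, 227 in Psmc6 and 9 in Psmb6, so that in Psme4 the stretch runs across the start into the gene. The 6 genes with the motif lay on both sides of 0. The log2 ratio was 0.31 for Psme4, 0.23 for Psmc6 and 0.03 for Psmd12, and it was -0.13 for Psmd9, -0.21 for Psmb6 and -0.25 for Psmb5.

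As a whole the 44 genes differed little between the libraries. All 44 lay above the floor, so none was lost to the filter on low values. Their reads summed to 112176 in the control and 117918 in the LY500307 library, a share of 0.771% (95% interval 0.767 to 0.776) and 0.781% (0.776 to 0.785) of all reads. On the deposited scale the sum was 1.01-fold lower in the LY500307 library (interval 1.002 to 1.019). With both libraries set to equal totals the sum was instead 1.01-fold higher, so it has no direction that holds across scalings. The median log2 ratio of the 44 was -0.03, against -0.02 for all genes above the floor.

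Of the 44 genes, 28 had a log2 ratio below 0, against a background of 52.8% of all genes, and 16 had one above 0, against 47.2%. With equal totals the number below 0 was 23. At least 1.2-fold lower on the log2 scale was 1 gene, Psmd3, where the background was 15.9%, and at least 1.2-fold higher was 1 gene, Psme4, where it was 10.5%. The least-sequenced of the 44 had 454 reads in all, and among the 8146 genes that reached this number these backgrounds were 13.0% and 5.92%. None of the 44 was 1.5-fold apart in either direction, where the background was 1.97% lower and 1.80% higher, or 0.589% and 0.110% among the genes of equal or greater depth.

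The ratios of the 44 genes ran from -0.27 for Psmd3 to 0.31 for Psme4, with an SD of 0.14 between genes. For the 8146 genes of equal or greater depth the SD was 0.21. The counting interval of the fold excluded 1 for 22 of the 44 genes. It lay below 1 for 11 of them, against 23.7% of all genes, and above 1 for the other 11, against 18.1%. Among the genes of equal or greater depth these backgrounds were 28.5% and 21.4%. With equal totals the same counts were 10 below and 14 above, against 20.1% and 22.5% of all genes under that scaling. The interval of Psme1 then spanned 1, and those of Psma1, Psmd11 and Psmg2 lay above it. Single-gene intervals given below are those of the deposited scale. In bulk RNA, fewer cells of a kind and less RNA per cell cannot be told apart.

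**Figure D1:**
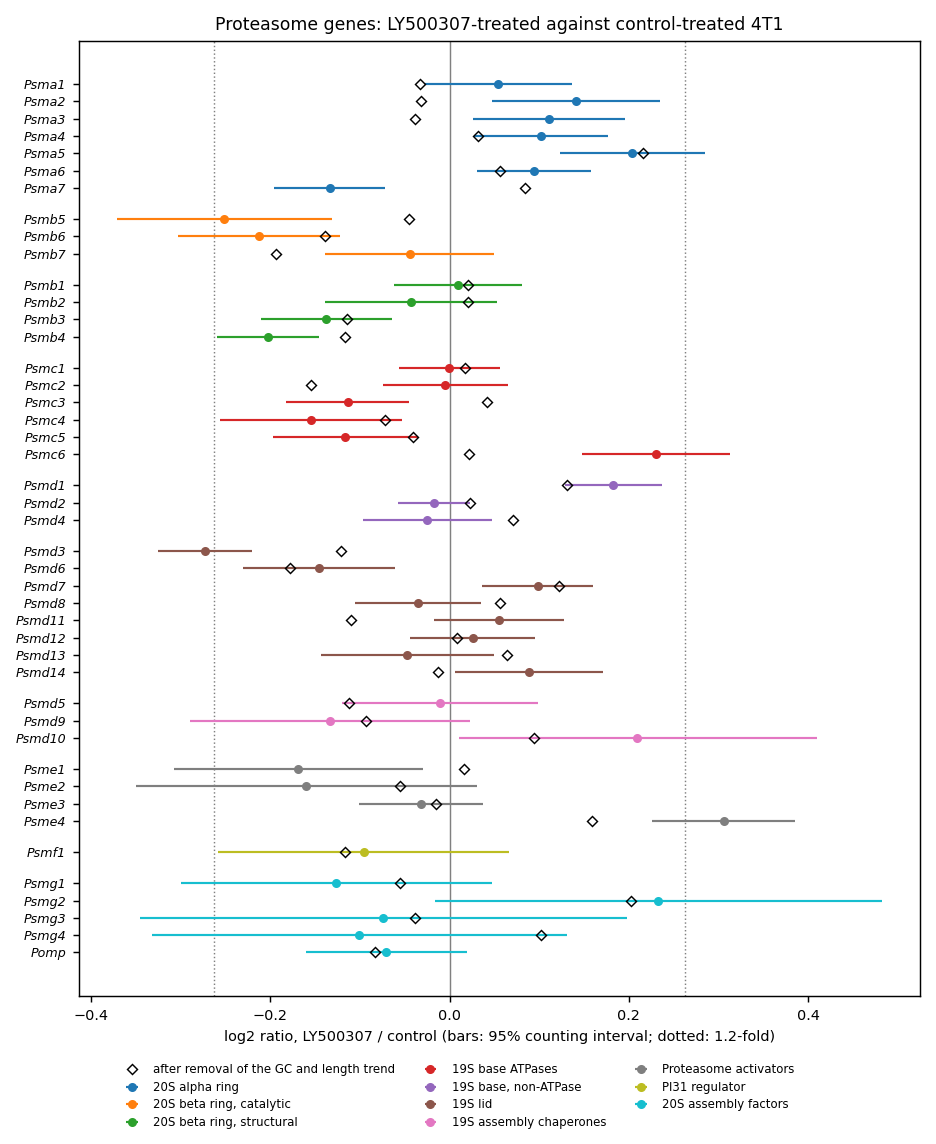
Log2 ratio of the LY500307 to the control library for each of the 44 genes (horizontal axis), grouped by role. Points are the ratio of the deposited values, bars its 95% counting interval, diamonds the log2 ratio after removal of the trend in GC content and length, and dotted lines 1.2-fold. Only Psmd3 and Psme4 have a point past a dotted line, and 6 of the 7 alpha ring genes lie right of 0 while 6 of the 7 beta ring genes lie left of it.

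Inside the core particle the genes of the alpha and the beta rings lay on opposite sides of 0. The alpha subunits form the outer rings, and their tails close the gate to the chamber. Of the 7 alpha genes 6 were higher in the LY500307 library, with a median log2 ratio of 0.10. The highest was Psma5, whose reads were 2255 in the control and 2758 in the LY500307 library, 1.15-fold higher (interval 1.09 to 1.22). Psma2 (1723 and 2018 reads) was 1.10-fold higher (1.03 to 1.18), and Psma3, Psma4 and Psma6 were 1.08-fold, 1.07-fold and 1.07-fold higher, with intervals above 1. Psma1, with 2315 and 2553 reads, had an interval that spanned 1 (0.981 to 1.10). Psma7 was the exception, with 4314 and 4176 reads and a value 1.10-fold lower (1.05 to 1.15) in the LY500307 library.

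The 7 beta genes had a median log2 ratio of -0.14, and 6 were lower in the LY500307 library. Psmb5, the chymotrypsin-like subunit and the main target of bortezomib, had 1207 reads in the control and 1077 in the LY500307 library, 1.19-fold lower (1.10 to 1.29). Psmb6, the caspase-like subunit, had 2073 and 1900 reads, 1.16-fold lower (1.09 to 1.23). Psmb7, the trypsin-like subunit, had 1805 and 1859 reads, and its fold of 0.970 could not be told from 1 at this depth (0.908 to 1.03). All 3 catalytic genes thus had a value below the control's, 2 of them beyond counting error.

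Among the 4 beta genes without a catalytic site, Psmb4 was lowest, with 5197 and 4795 reads and a value 1.15-fold lower (1.107 to 1.197). Psmb3 had 3095 and 2988 reads and was 1.10-fold lower (1.05 to 1.16). Psmb2, with 1750 and 1804 reads, and Psmb1, with 3066 and 3278, had intervals that spanned 1, and Psmb1 was the 1 beta gene with a log2 ratio above 0, at 0.01. These counts of 6 and 1 in each ring held with equal totals, with an upper quartile, with TMM factors and with the median of all genes set to 0.

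A share within each library does not depend on the scaling between libraries. Alpha genes supplied 51.4% of the core particle's reads in the control (interval 50.9 to 51.9) and 54.6% in the LY500307 library (54.1 to 55.1). With the reads of near-identical copies added the shares were 51.9% and 55.4%. The core particle's share of all core and regulatory particle reads was 37.8% (37.5 to 38.1) and 37.6% (37.3 to 37.9), so the balance of the particles differed by less than counting error while that of the rings differed by more.

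GC content moved with this split. The transcripts of the alpha genes had a median GC content of 45.0%, and those of the beta genes 51.0%. Once the trend that all genes followed in GC content and length was removed, the alpha genes had a median log2 ratio of 0.03, with 3 below 0 and 4 above. The beta genes had one of -0.11, with 5 below and 2 above. Psma1, Psma2 and Psma3 were then on the other side of 0, with folds of 0.977, 0.978 and 0.973, and Psma7 likewise, with a fold of 1.06. With the GC content and length of the principal transcript in place of the longest, a setting added after the data were seen, the ring medians without the trend lay close together, at -0.05 for alpha and -0.05 for beta, with 4 of 7 and 6 of 7 below 0. The ring medians thus stayed on opposite sides of 0 with the trend of the longest transcript and not with that of the principal transcript.

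Psma5 kept its ratio, 0.20 as deposited, 0.22 without the trend and 0.20 without that of the principal transcript. All 3 catalytic genes kept a log2 ratio below 0 under both. It was -0.05 and -0.05 for Psmb5, -0.14 and -0.03 for Psmb6, and -0.19 and -0.06 for Psmb7. None of these is 1.2-fold, where the background of the first measure was 8.47%.

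Cells exposed to interferon gamma replace the catalytic subunits by the immunoproteasome subunits PSMB8, PSMB9 and PSMB10, which take the places of PSMB5, PSMB6 and PSMB7. These genes are not among the 44. Psmb8 had 121 and 147 reads, 1.14-fold higher with an interval from 0.893 to 1.47. It made up 9.11% (7.62 to 10.8) of the reads of Psmb8 and Psmb5 together in the control and 12.0% (10.2 to 14.0) in the LY500307 library. A near-identical copy of Psmb5, Gm3375, had 890 and 847 reads. They are left out here and from the share over all 3 pairs below, and with them both shares of Psmb8 would be lower. None of these shares is corrected for transcript length. Psmb9, with 34 and 24 reads, made up 1.61% (1.12 to 2.25) and 1.25% (0.801 to 1.85) of its pair. Psmb10 had 562 and 477 reads, 1.25-fold lower (1.11 to 1.42), and made up 23.7% (22.0 to 25.5) and 20.4% (18.8 to 22.1) of its pair. The pairs' shares thus went in different directions. In each pair the intervals of the 2 libraries overlapped. Such an overlap does not place a difference within counting error, and no interval of the difference itself was computed. Taken over all 3 pairs, the share of immunoproteasome reads was 12.4% (11.5 to 13.2) and 11.8% (10.97 to 12.70). Without the GC and length trend the log2 ratio was 0.28 for Psmb8, -0.45 for Psmb9 and -0.13 for Psmb10. With the principal transcript these were 0.36, -0.42 and -0.14. Psmb10 was then above Psmb7, at -0.19, with the longest transcript, and below it, at -0.06, with the principal transcript. The shares of reads are not corrected for this trend. Psmb11, the thymic subunit, had 0 reads in the control and 2 in the LY500307 library, and Psma8, the testis subunit, was not analysed here.

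**Figure D2:**
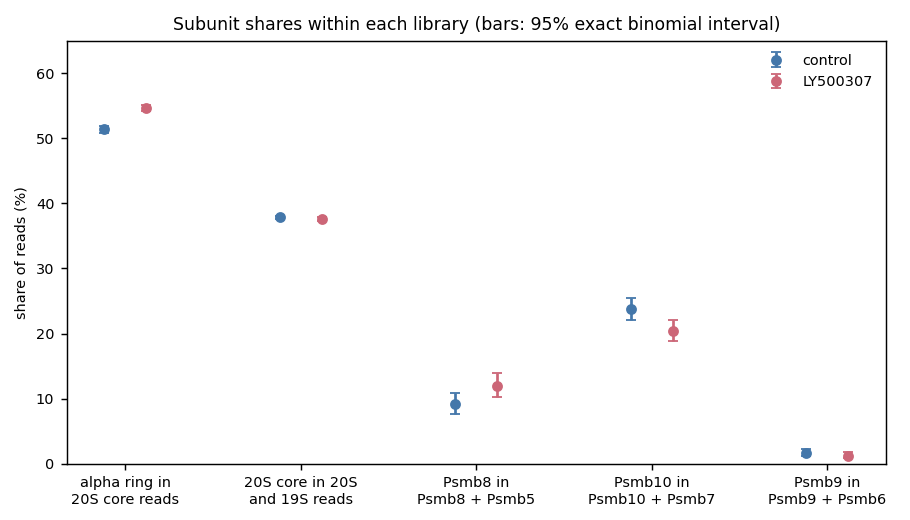
Share of reads (percent, vertical axis) taken by the first-named genes among those named on the horizontal axis, in the control and the LY500307 library, with 95% exact binomial intervals. The alpha ring share is higher in the LY500307 library (51.4% and 54.6%), and the core particle share is nearly level (37.8% and 37.6%). The immunoproteasome shares do not go 1 way. In each pair the intervals of the libraries overlap, which is not a test of the difference.

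The 6 ATPases of the base, which thread the substrate into the core, had a median log2 ratio of -0.06. Psmc6 was the highest of them, with 2149 reads in the control and 2677 in the LY500307 library, 1.17-fold higher (1.11 to 1.24). Psmc3, Psmc4 and Psmc5 were lower by 1.08-fold, 1.11-fold and 1.08-fold, with intervals that left out 1. Psmc1 (4926 and 5230 reads) and Psmc2 (3223 and 3412) had log2 ratios of -0.00054 and -0.0047, and their intervals spanned 1. Of the 6, 5 were below 0 as deposited and 3 with equal totals. Psmc6 had the lowest GC content of all 44 genes, 37.0%, and without the trend its log2 ratio was 0.02. Without the trend Psmc3, at 55.1% GC, was on the other side of 0 with a fold of 1.03, and Psmc1 was at 0.02.

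In the base, Psmd1 and Psmd2 encode large scaffold subunits and Psmd4 a receptor for ubiquitin chains. Psmd1 had 4981 and 6005 reads, 1.14-fold higher (1.09 to 1.18), and kept a log2 ratio of 0.13 after removal of the trend. Psmd2, with 9717 and 10196 reads the most of the 44, had a fold of 0.988 (0.961 to 1.02). Psmd4 had 3057 and 3191 reads and a fold of 0.983 (0.935 to 1.03). One of these 3 genes, Psmd1, was therefore apart from 1 by more than counting error.

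The 8 lid genes were split evenly, 4 below 0 and 4 above, with a median log2 ratio of -0.0047. Psmd3, a structural subunit of the lid, was the lowest of the 44, with 6250 reads in the control and 5494 in the LY500307 library, 1.21-fold lower (1.17 to 1.25). Psmd6 was 1.11-fold lower (1.043 to 1.174), with 2275 and 2184 reads. Psmd14, the metalloprotease that cuts off the ubiquitin chain, was at 2245 reads in the control against 2535, 1.06-fold higher (1.004 to 1.126). Its inactive partner Psmd7 was 1.07-fold higher (1.02 to 1.12), with 3939 and 4478 reads. The intervals of Psmd8, Psmd11, Psmd12 and Psmd13 spanned 1. Psmd3 had a GC content of 55.4%, and its log2 ratio without the trend was -0.12, or -0.04 with the principal transcript. Without the trend Psmd6 was at -0.18 and Psmd7 at 0.12, while Psmd14 changed side, with a fold of 0.991, as did Psmd8, Psmd11 and Psmd13, whose intervals had spanned 1.

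The chaperones Psmd5, Psmd9 and Psmd10 (gankyrin) hold ATPase pairs while the base is built and are absent from the finished particle. Psmd10 had 377 and 463 reads, 1.16-fold higher (1.01 to 1.33). The intervals of Psmd5 (1331 and 1403 reads) and Psmd9 (685 and 663) spanned 1. Gankyrin was thus the 1 chaperone of the 3 with an interval clear of 1, at 42.3% GC and with 0.09 left after removal of the trend.

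Activators bind the ends of the core in place of the 19S particle. Psme4, which encodes PA200, a large nuclear activator studied in the degradation of acetylated histones, had the highest ratio of the 44. Its reads were 2247 in the control and 2950 in the LY500307 library, 1.24-fold higher (1.17 to 1.31). Its GC content was 43.9%, and 0.16 of its log2 ratio of 0.31 was left after removal of the trend, or 0.15 with the principal transcript, both below 1.2-fold. The PA28 alpha and beta subunits, Psme1 and Psme2, form a heteromeric ring that interferon gamma induces. Psme1 had 871 and 823 reads, 1.12-fold lower (1.02 to 1.24), and without the trend a fold of 1.01. Psme2 had 467 and 444 reads, with a fold of 0.895 (0.784 to 1.02). Psme3, the nuclear PA28 gamma, had 3340 and 3469 reads and a fold of 0.978 (0.932 to 1.03). Psmf1, which encodes PI31, a protein that inhibits the core in vitro, had 630 and 626 reads and a fold of 0.935 (0.836 to 1.05). On the deposited scale, Psme4 and Psme1 were the activator genes apart from 1 by more than counting error, in opposite directions. With equal totals this held for Psme4 only.

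Assembly of the core begins with the chaperone pairs PSMG1 with PSMG2 and PSMG3 with PSMG4, which build the alpha ring, and POMP, which guides the beta subunits and is degraded by the finished core. On the deposited scale none of these 5 genes had an interval that left out 1, while with equal totals that of Psmg2 lay above 1. Psmg2 had the second highest log2 ratio of the 44, 0.23, but 242 and 302 reads, and its fold of 1.17 had an interval from 0.989 to 1.40. Its partner Psmg1 had 554 and 539 reads and a fold of 0.916 (0.812 to 1.03). Psmg3, with 226 and 228 reads, and Psmg4, with 312 and 309, had log2 ratios of -0.07 and -0.10. Pomp had 2022 and 2045 reads and a fold of 0.952 (0.895 to 1.01).

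Genes with more GC in their longest annotated transcript had lower log2 ratios among the 44, with Pearson's r of -0.70 and Spearman's rho of -0.75. Over the 11370 genes above the floor that have a GC content, these were -0.51 and -0.59. They are descriptions across genes of the same 2 libraries and not of replicates. The 10 genes with the lowest GC content, 36.97% to 43.96%, had a median log2 ratio of 0.10, and 2 of them were below 0. The 10 with the highest, 52.6% to 57.4%, had a median of -0.12, and all 10 were below 0. After removal of the trend of all genes, Spearman's rho over the 44 was 0.07, the SD between genes was 0.10 in place of 0.14, and the 2 groups of 10 had medians of -0.03 and 0.05.

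Without the trend the 44 genes had a median log2 ratio of -0.01, with 23 below 0, against a background of 53.6%, and 21 above, against 46.4%. None was 1.2-fold lower, where the background was 8.47%, or 1.2-fold higher, where it was 7.75%. The range was -0.19 for Psmb7 to 0.22 for Psma5. With the principal transcript 27 were below 0, and the range was -0.20 for Psmd6 to 0.20 for Psma5. Whether the relation with GC content arises in the cells or in the preparation of the libraries was not tested.

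**Figure D3:**
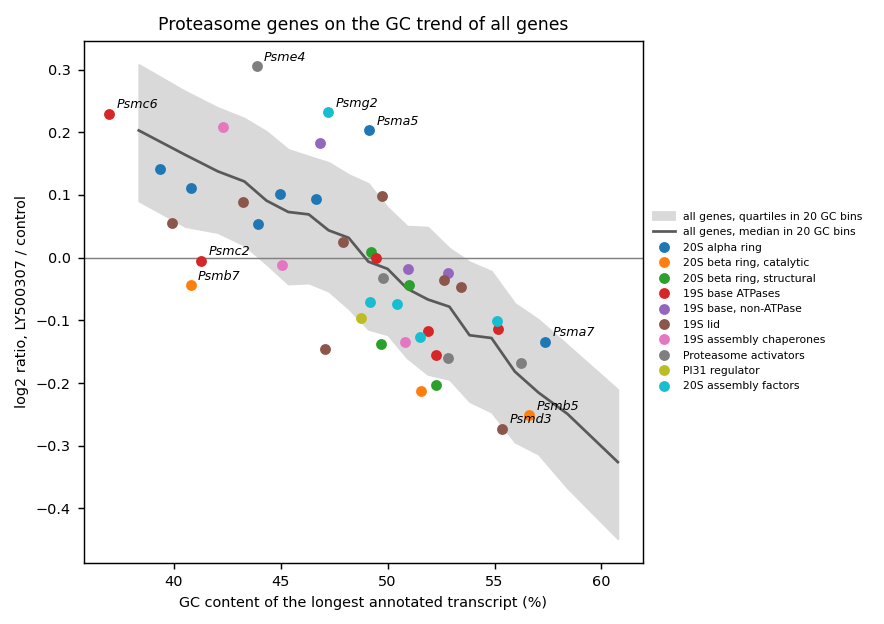
Log2 ratio of the LY500307 to the control library (vertical axis) against the GC content of the longest annotated transcript in percent (horizontal axis). Points are the 44 genes coloured by role. The line and band are the median and quartiles, in 20 GC bins, of all nuclear genes above the floor that have a GC content. The points descend with the line, from Psmc6 at 37.0% GC to Psma7 at 57.4%, with Pearson's r of -0.70 over the 44.

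Levels between genes were compared as deposited value per kilobase of the principal transcript. The median over the 44 genes was 1627 per kilobase in the control and 1576 in the LY500307 library. Psma7 was highest, at 4864 and 4433 per kilobase, and Psmf1 lowest, at 170 and 159. In the control, core particle genes ran from 610 for Psma2 to the 4864 of Psma7, and 19S genes from 892 for Psmd13 to 3382 for Psmd2. The 3 base chaperones lay below all of these, at 272 for Psmd10, 272 for Psmd9 and 312 for Psmd5. The assembly factors of the core lay between 236 for Psmg2 and 1320 for Pomp. Genes whose products make up the finished particle in equal numbers therefore differed up to several-fold in RNA per kilobase in these libraries. The levels and their order depend on the transcript length taken for each gene. In the control the highest gene was Psmb4 with the longest transcript or the coding length and Psma6 with merged exons. The lowest was Psmg3 with the longest transcript or merged exons and Psmg2 with the coding length, where Pomp was at 4926.

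**Figure D4:**
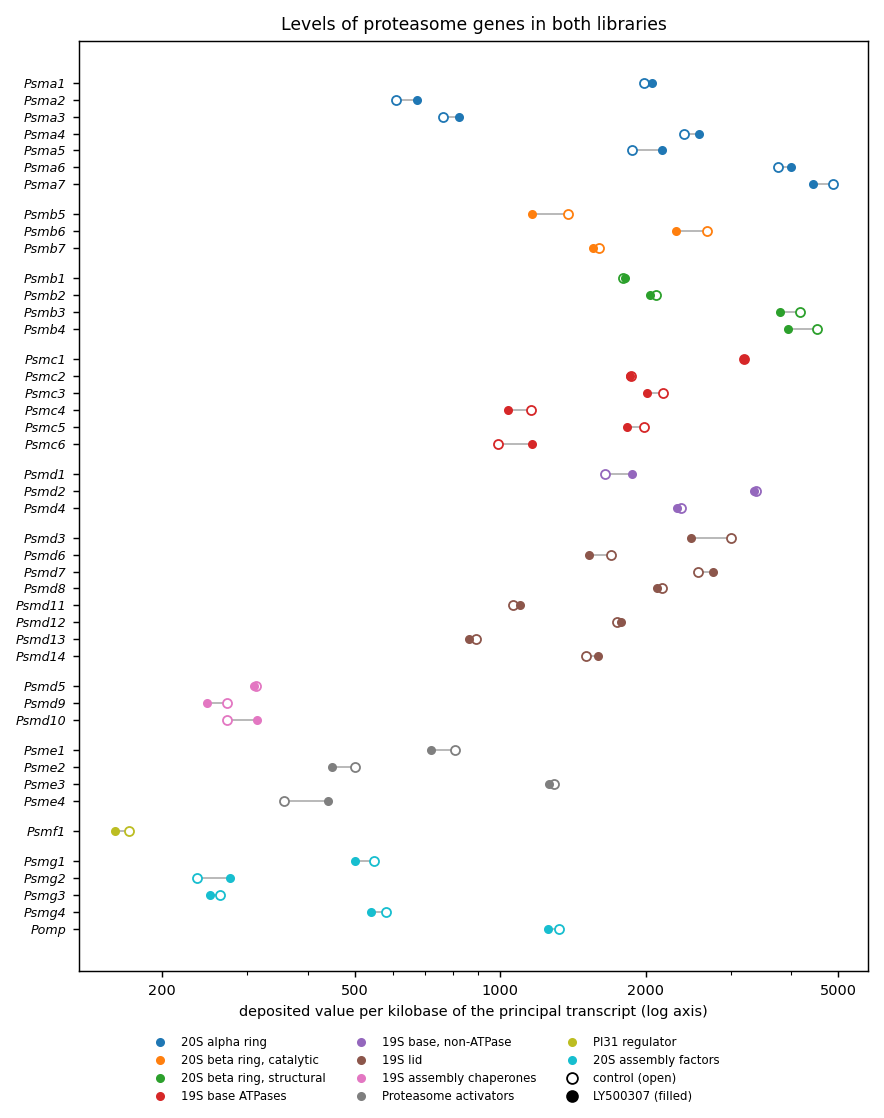
Deposited value per kilobase of the principal transcript for each of the 44 genes (horizontal axis, logarithmic), with open symbols for the control and filled symbols for the LY500307 library. Core and 19S genes lie mostly to the right of the base chaperones, most assembly factors and Psmf1, from Psma7 at 4864 down to Psmf1 at 170 in the control, and the distance between libraries is small beside that between genes.

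Several of these genes have near-identical copies elsewhere, between which the counting could have split reads. Copies of at least 90% identity over 200 bases were listed for 9 of the 44 genes. The processed pseudogene Gm13835 matches Psma3 at 100% over 665 bases and had 1010 and 1269 reads. Gm3375 matches Psmb5 at 98.9% over 796 bases and had 890 and 847 reads, and Psme2b matches Psme2 at 99.4% and had 170 and 187. With the copies' reads added, Psmb5 was 1.16-fold lower (1.09 to 1.23), Psma3 1.11-fold higher (1.06 to 1.17), and Psme2 had a fold of 0.933 (0.834 to 1.04). The folds of these 3 genes are uncertain to that extent, and none changed side.

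Exon bases were shared with another gene by 11 of the 44. For Psmb7 the overlap is 405 bases with Nek6, which had 885 and 962 reads, and for Psmc3 it is 215 bases with Slc39a13, which had 1148 and 1008, both on the opposite strand. Psmd9 shares 1849 bases with the lincRNA Gm26745, and Psmd13 shares 342 with Sirt3. The library kit keeps the strand, but whether the counting used it is not given in the sources used here, so the values of these genes may hold reads of the neighbour.

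The other genes of the pathway were taken from lists chosen with earlier results of these data known. Of 8 further subunits and proteasome-bound proteins measured, 2 were below 0, against 52.8% of all genes, and 6 above, against 47.2%. Their median log2 ratio was 0.09, and 1 of them was at least 1.2-fold higher, where the background was 10.5%. Uchl5, a deubiquitinase of the 19S particle, had 1368 and 1844 reads, 1.27-fold higher (1.18 to 1.36), and Usp14, another, had 2535 and 3113, 1.16-fold higher (1.10 to 1.22). Adrm1, the ubiquitin receptor that anchors UCHL5, had 2613 and 2313 reads and a log2 ratio of -0.26, with a fold of 0.833 (0.788 to 0.882). After removal of the trend the median of the 8 was -0.0021, with 0.18 left for Uchl5, 0.01 for Usp14 and -0.13 for Adrm1, the last of which was 0.04 with the principal transcript.

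In the NFE2L1 pathway, 6 of 8 genes were below 0, against a background of 52.8%, with a median log2 ratio of -0.14. At least 1.2-fold lower were 2 of the 8, where the background was 15.9%. Nfe2l1 itself had 4385 and 3854 reads, 1.21-fold lower (1.16 to 1.26). Ddi2, the protease that releases NFE2L1 from its precursor, had 810 and 882 reads and a fold of 1.03 (0.931 to 1.13). Of the small MAF partners, Maff had 500 and 389 reads, 1.37-fold lower (1.19 to 1.56), Mafg was 1.12-fold lower and Mafk 1.14-fold lower. The median of the list was -0.05 without the trend, where 7 of 8 were below 0, against a background of 53.6%. None was then 1.2-fold apart, where the background was 8.47% lower and 7.75% higher.

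Among VCP, its cofactors and the shuttle proteins that bring substrates to the proteasome, 12 of 15 genes were below 0. The background was 52.8% of all genes, and the median of the 15 was -0.04. Without the trend 8 of the 15 were below 0, against a background of 53.6%, with a median of -0.015. Vcp, the ATPase that extracts ubiquitinated proteins, had 6794 and 8189 reads, 1.13-fold higher (1.10 to 1.17). Of the ubiquitin genes, Rps27a, which encodes ubiquitin fused to a ribosomal protein, had 7019 and 13304 reads, 1.78-fold higher (1.73 to 1.84). The background at least 1.5-fold higher was 1.80% of all genes. Ubb had 6292 and 5656 reads, 1.18-fold lower (1.14 to 1.22), and the E1 enzyme gene Uba1 had 10454 and 10556, 1.05-fold lower (1.02 to 1.08). Of the 7 genes of MHC class I peptide loading, which receives proteasome products, 6 were below 0, against 52.8% of all genes. Their median was -0.14. Without the trend it was -0.01, with 4 of the 7 below 0, against 53.6%.

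Other complexes of many subunits gave medians in the same range. The COP9 signalosome, a relative of the lid, had a median of -0.03 with 5 of 9 genes below 0. The eIF3 complex, which is built on the same plan as the lid, had -0.08 with 9 of 13 below 0. The CCT chaperonin had 0.06 with 2 of 8 below 0. The background for each of these counts was 52.8% of all genes. The median of -0.03 for the 44 proteasome genes lies among these.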

How the data were processed

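Total RNA of 1 control-treated and 1 LY500307-treated 4T1 sample was isolated with TRIzol, freed of ribosomal RNA and sequenced from stranded TruSeq libraries, per the labels' protocols. Bowtie2, CASAVA 1.8 and the build mm9 are listed in the submitters' processing notes. Not given in these sources are the counter, the annotation, the handling of strand and of reads with several matches, and the normalization. The deposited signal of each library is a run of whole multiples of 1.03059 (control) or 0.970322 (LY500307): 99.95% and 99.96% lay within 0.01 of a whole read, and these reads were recovered. Groups came from the labels. No value column was left out.

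The log2 ratio was computed from the deposited values with a pseudocount of 1.03, their 5th percentile above 0, and a floor of 33.0, their 40th percentile. Single-gene folds use no pseudocount, and their 95% intervals are exact (Clopper-Pearson) on recovered reads, which carry no molecular identifiers. With 1 library per group no model was fitted to the counts and no test was made. The genes and lists were chosen with earlier results of these data known. Symbols, GC contents and lengths came from GENCODE M21 (19443 of 19498 IDs matched), not from the authors' annotation. The GC and length trend was fitted by robust regression on splines with 5 degrees of freedom each (statsmodels 0.14.6). The fit was tested on simulated data with a linear GC trend, and a curved trend or one in length was not simulated. Copies were found with BLAST 2.17.0, and TMM factors came from edgeR 4.0.16. Full reads were to be given for the catalytic subunits, the activators, the 3 highest and 3 lowest log2 ratios and the highest and lowest level per kilobase. Reads of other genes, and comparisons between roles, were chosen after the values were seen. The principal transcript (APPRIS tag), the copies and the share with copies were likewise settings added after seeing the data. Single values of some genes of the wider pathway are not reported here.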

Additional observations from a re-analysis of the deposited data

How the results depend on the processing

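No result has a spread between cultures. Leaving out a replicate was not possible, and no paired analysis was possible because each group has 1 library. The median log2 ratio of the 44 genes was -0.0015 with equal totals, -0.0020 with an upper quartile, -0.018 with the median of all genes set to 0 and -0.014 without the GC and length trend. The number at least 1.2-fold lower was 0 under each of these and with the trend of the principal transcript. The number at least 1.2-fold higher was 2 with equal totals or an upper quartile and 0 without either trend. The summed fold was 1.01 with equal totals or an upper quartile and 1.0006 with the median set to 0. The fold changed side without the trend for 15 of the 44 genes. In 9 of them the counting interval had spanned 1. The other 6 were Psma2 (0.978), Psma3 (0.973), Psma7 (1.06), Psmc3 (1.03), Psmd14 (0.991) and Psme1 (1.01). With the principal transcript's trend Psma7 and Psme1 stayed below 0. The cause was not tested. The control median per kilobase was 1435 with the longest transcript, 789 with merged exons and 2459 with the coding length. Pseudogenes named after a member were not added by name, since none was found; copies were found by sequence, and adding them left all 44 folds on the same side. Low read numbers limit Psmb8, Psmb9 and Psmb11 and, among the 44, Psmg2, Psmg3 and Psmg4.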
